A study of Mus musculus with 20 samples.

Results

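The Hox genes of the Hoxa, Hoxb, Hoxc and Hoxd clusters were followed through 20 single-colour expression arrays of mouse brain progenitor cell lines. Members were all genes whose symbol in the platform annotation is Hox with a cluster letter a to d and a number, measured by probe sets carrying that symbol alone. This gave 33 genes on 48 probe sets, of 18193 genes measured, with 9 genes in Hoxa, 9 in Hoxb, 7 in Hoxc and 8 in Hoxd. The RefSeq gene table lists 39 Hox genes, and those without a single-symbol probe set were not analysed here, among them Hoxb8 and Hoxd4, whose probe sets carry several symbols. The 4 groups had 5 arrays each and were transduced embryonic progenitors, which carry a genetic modification, their embryonic control progenitors, transformed postnatal progenitors, and their postnatal control progenitors. The labels give brain and cell line as the source of all groups and total RNA as the material. They do not name the introduced sequence, the transforming agent, the strain or the brain region. They also do not say that arrays of a group came from separate cultures, so p-values measure the spread between these arrays, which may be technical.

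Hox genes encode transcription factors that bind DNA through a homeodomain and tell cells of the embryo where along the head-to-tail axis they lie. Within a cluster the genes stand in the order in which they are used along that axis, from low paralogue numbers, used up to the hindbrain, to high numbers, used in the tail end of the trunk. Forebrain and midbrain normally lack Hox expression, whereas hindbrain and spinal cord carry combinations of Hox genes that set the type of neurons and glia made at each level, and cultured cells often keep the combination of the place they came from. Silent clusters are held by Polycomb proteins, and retinoic acid, Cdx factors and Trithorax proteins act on the side of activation.

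Signals are linear intensities. A gene is given by its brightest probe set, and background is the 95th percentile of bacterial control probe sets on each array, between 107 and 221. Within postnatal control, arrays 4 and 5 stood apart from the other arrays in a list of 8 mitosis genes, with the transformed arrays at mean log2 signals of 11.19 to 11.44 and arrays 1 to 5 of postnatal control at 14.02, 13.98, 14.01, 11.18 and 11.01. As a measure of RNA integrity, the mean log2 ratio of the 3′ to the 5′ Gapdh probe set was -0.304 in transduced and -0.383 in embryonic control arrays, and -0.551 in transformed and -0.461 in postnatal control arrays. The Actb ratio was 0.391 to 0.452 in transduced against 0.301 to 0.352 in embryonic control arrays, without overlap, and 0.226 to 0.324 in transformed against 0.196 to 0.294 in postnatal control arrays. The part of these differences in the Hox results was not tested.

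The sequences before 3 Hoxa genes are shown because Hoxa5 and Hoxa7 rose in transformed postnatal cells and Hoxa9, the next measured gene of the cluster, did not pass the test. Each is the 250 bases before the RefSeq start of the gene, on the minus strand of chromosome 6 in build GRCm38.p6, written 5′ to 3′ with CG pairs, the bases that DNA methylation marks, in capitals. They are chr6:52204588-52204837 for Hoxa5, chr6:52218574-52218823 for Hoxa7 and chr6:52227371-52227620 for Hoxa9.
Hoxa5: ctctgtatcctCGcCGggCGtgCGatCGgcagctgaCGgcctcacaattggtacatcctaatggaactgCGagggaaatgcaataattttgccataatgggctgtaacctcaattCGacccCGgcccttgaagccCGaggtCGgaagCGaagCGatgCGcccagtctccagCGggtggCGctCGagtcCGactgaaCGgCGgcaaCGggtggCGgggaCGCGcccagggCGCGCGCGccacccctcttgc
Hoxa7: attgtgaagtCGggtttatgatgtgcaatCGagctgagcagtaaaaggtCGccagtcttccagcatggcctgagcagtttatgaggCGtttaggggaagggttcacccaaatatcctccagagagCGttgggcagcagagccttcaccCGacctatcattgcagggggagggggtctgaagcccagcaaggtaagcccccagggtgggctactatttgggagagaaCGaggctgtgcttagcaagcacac
Hoxa9: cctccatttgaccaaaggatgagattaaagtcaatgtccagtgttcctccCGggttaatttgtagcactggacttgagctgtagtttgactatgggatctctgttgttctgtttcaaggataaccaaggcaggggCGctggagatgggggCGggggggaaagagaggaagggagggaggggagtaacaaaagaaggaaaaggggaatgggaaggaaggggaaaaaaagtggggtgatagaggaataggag
The Hoxa5 sequence holds 28 CG pairs, and 7.61% of the 32851 promoters in the RefSeq table hold as many or more. The Hoxa7 sequence holds 7 (46.3% of promoters) and the Hoxa9 sequence 3 (71.0%). The median is 6 over all promoters and 13 over the 21 entries of the 19 Hox genes found in the table, which range from 2 to 35. Searched on both strands, the Cdx-type motif TTTATG stands in 3 of the 21 entries, those of Hoxa7 and Hoxd3 and an entry of Hoxd11, and in 10.8% of all promoters. The composite motif TGATTNAT, to which Hox proteins bind with Pbx, stands in 2 entries, for Hoxa2 and Hoxd11, and in 2.83% of all promoters. These matches describe letters in the window and not binding sites.

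Embryonic and postnatal cells differed in which Hox genes read above background. All 5 transduced embryonic arrays lay above it for 22 of 33 genes, and all 5 embryonic control arrays for 22 of 33. In transformed postnatal cells 7 genes did so, Hoxa2, Hoxa3, Hoxa4, Hoxa5, Hoxa7, Hoxb7 and Hoxd8, and in postnatal control 1, Hoxa5. Over all genes measured the same share was 63.2% in transduced, 63.6% in embryonic control, 65.4% in transformed and 63.1% in postnatal control cells. In bulk RNA, fewer cells that use a gene and less RNA of it per cell cannot be told apart.

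**Figure D1:**
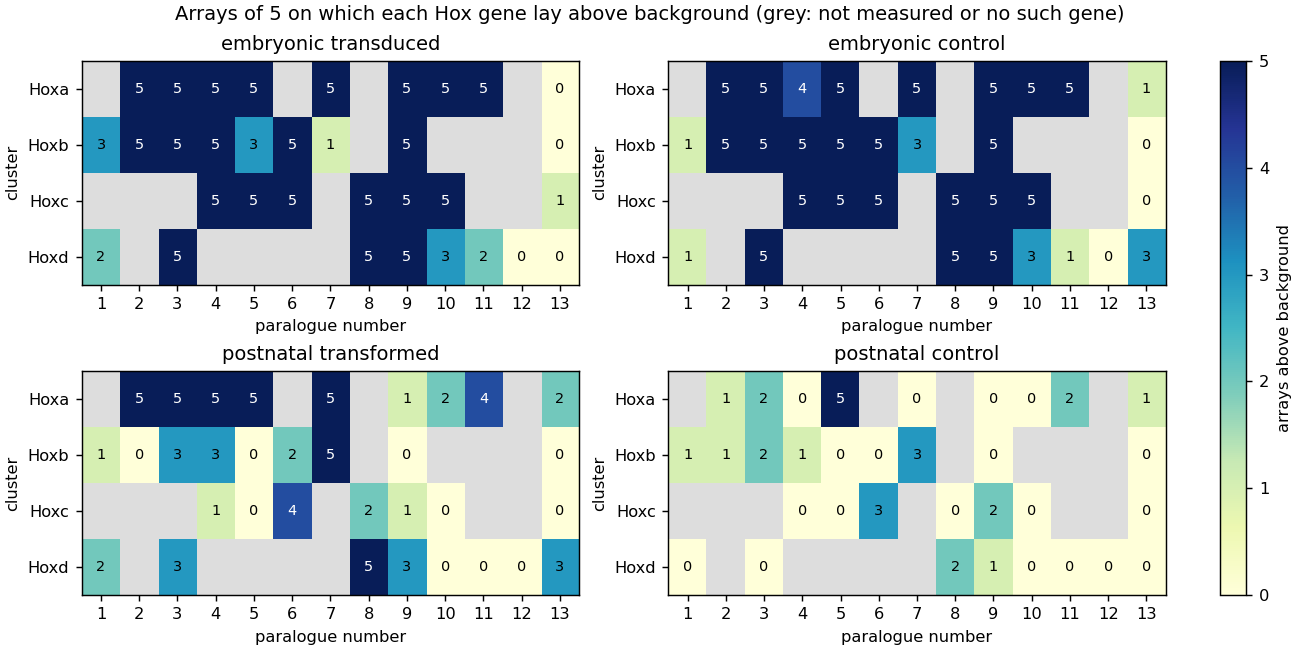
Number of arrays of 5 (colour and digit) on which each Hox gene lay above background, by cluster (rows) and paralogue number (columns), in 4 panels for the groups. In both embryonic groups the genes at 5 arrays run up to Hoxa11, Hoxb9, Hoxc10 and Hoxd9. In transformed postnatal cells they run up to Hoxa7 in Hoxa, and Hoxb7 and Hoxd8 are the only such genes of their clusters.

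On all 5 arrays, the range of paralogue numbers above background had the same end in both embryonic groups. The highest-numbered gene above background on all 5 arrays was Hoxa11, Hoxb9, Hoxc10 and Hoxd9 in transduced cells, and the same genes in embryonic control. Hoxa13, Hoxb13, Hoxc13, Hoxd12 and Hoxd13, which pattern limb ends, tail and genital tract, did not lie above background on all arrays of any group. The map of arrays above background shows these edges. The embryonic groups differed in 2 of these genes, with Hoxa4 above background on 5 transduced and 4 control arrays and Hoxb5 on 3 transduced and 5 control arrays. In transformed postnatal cells the upper end on all arrays was Hoxa7 in Hoxa. Hoxb7 and Hoxd8 were the only genes of their clusters to reach all 5 arrays, so they are not the end of a run. No Hoxc gene reached all 5 arrays. These ends depend on the rule. With at least 3 arrays in place of 5, the Hoxd end was Hoxd10 in transduced and Hoxd13 in embryonic control cells, and the ends in transformed cells were Hoxa11, Hoxb7, Hoxc6 and Hoxd13. With the highest control probe set as background, Hoxb7 was not above it on all transformed arrays.

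Counted array by array, 26, 26, 25, 24 and 24 of the 33 Hox genes lay above background on transduced arrays, against 25, 25, 26, 24 and 27 on embryonic control arrays. On transformed arrays the numbers were 10, 20, 14, 17 and 11, against 7, 3, 6, 4 and 7 on postnatal control arrays. The embryonic groups overlapped, while every transformed array had more Hox genes above background than every postnatal control array. Of all probe sets, 65.3, 70.0, 68.0, 73.2 and 61.3% lay above background on transformed arrays, in the same order. On postnatal control arrays the shares were 70.2, 67.4, 70.5, 65.4 and 64.8%, so these groups overlapped. The background level itself was 164, 135, 146, 107 and 200 on the transformed arrays. The numbers of Hox genes varied more among transformed arrays than among embryonic arrays, and many Hox signals of the transformed arrays lay close to background. The part of the background level in these numbers was not tested.

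Postnatal control cells had lower Hox signals than embryonic control cells over most of the clusters. Called changes are those with an adjusted p under 0.05 and at least 2-fold in the limma fit over all genes. Between the controls 24 of 33 Hox genes were called lower, or 72.7%, and none higher, while 5.72% of all genes were called lower and 4.86% higher. At an unadjusted p under 0.05, 24 were lower and 0 higher. Over all genes, 2847 of 18193 were lower and 2983 higher at an adjusted p under 0.05 without the fold threshold. The median log2 difference of the Hox genes was -2.97 (-2.54 with genes at background taken at their bound), against -0.04 over all genes. By cluster the lower genes were 8 of 9 in Hoxa, 6 of 9 in Hoxb, 6 of 7 in Hoxc and 4 of 8 in Hoxd. The labels do not give the region the cells were taken from, so age, region and culture cannot be told apart. The count was 24 also without postnatal control arrays 4 and 5.

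The anterior Hoxa genes had lower signals in postnatal control. Hoxa2, which patterns the anterior hindbrain and the second pharyngeal arch, read 173, 155, 71.95, 139 and 73.3 in postnatal control, against 1452, 1377, 1614, 1308 and 1386 in embryonic control (adjusted p = 5.84e-11). Hoxa3, needed for thymus and parathyroid, read 142, 112, 147, 119.9 and 157 in postnatal control, against 875, 880.0, 902, 916 and 962 in embryonic control (adjusted p = 2.95e-12). Both were far lower in every postnatal control array by these probe sets, which lay above background on 1 array for Hoxa2 and 2 arrays for Hoxa3. A further Hoxa3 probe set was above background on all arrays of both controls and not called, at 186 to 297 in postnatal control and 246 to 407 in embryonic control (-0.36 ± 0.25). Hoxa4, a gene of the neck region, read 24.9, 72.8, 25.5, 26.4 and 41.7 in postnatal control, against 204, 252, 268, 186 and 185 in embryonic control, at least 1.46-fold lower (adjusted p = 3.41e-07), although 1 embryonic control array was itself below background and the second Hoxa4 probe set was not called (-0.84 ± 0.50). Hoxa5, which acts in the neck skeleton and the lung, read 1209, 996, 1207, 979 and 596 in postnatal control, against 7369, 3723, 6559, 5839 and 5767 in embryonic control, a log2 difference of -2.54 ± 0.20 (adjusted p = 2e-09). Its postnatal level rests on a probe set whose name ends in x_at, which marks probes that can match other sequences too. The other Hoxa5 probe set read 23.1, 13.7, 24.03, 12.8 and 24.8 in postnatal control, below background, against 13885, 15359, 13249, 14313 and 13940.2 in embryonic control, at least 95.3-fold lower.

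Hoxa genes of the trunk were lower too. Hoxa7, a gene of the thoracic level, read 42.9, 37.2, 30.8, 56.00 and 28.9 in postnatal control, against 6403, 7609.8, 7561, 6899 and 6894 in embryonic control, at least 47.6-fold lower (adjusted p = 3.2e-18). Hoxa9, also known as a driver of leukaemia, read 10.96, 32.1, 14.5, 44.2 and 119 in postnatal control, against 11449, 10737, 9786, 11664 and 11358 in embryonic control (adjusted p = 3.62e-12). Its second probe set read 87.6, 117, 583, 222 and 98.9 in postnatal control, above background on 2 arrays, against 2017, 3245, 1829.8, 1914 and 2192 in embryonic control (adjusted p over probe sets = 1.56e-06). No postnatal control array reached an embryonic control array by either Hoxa9 probe set, and since they differ in how far postnatal control lay below, no bound is given for Hoxa9. Hoxa10, which acts in lumbar vertebrae and uterus, read 22.9, 78.1, 17.7, 86.1 and 122 in postnatal control, against 2875, 3587, 3478, 3214 and 3601 in embryonic control, at least 22.5-fold lower (adjusted p = 9.82e-10). Hoxa11, a gene of the forearm and kidney, read 82.5, 157, 166, 72.8 and 225 in postnatal control, against 339, 603, 424, 268 and 375 in embryonic control (adjusted p = 0.00238), with 2 postnatal arrays above background. Hoxa13 was not called, and read 24.1 to 246 in postnatal control and 46.3 to 222 in embryonic control.

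Hoxb genes were lower from Hoxb2 to Hoxb6 and at Hoxb9. Hoxb2, a hindbrain gene, read 30.4, 38.96, 112, 69.8 and 231 in postnatal control, against 2419, 3669, 3159.8, 2196 and 2499.9 in embryonic control. Hoxb3, which also patterns the hindbrain, read 145, 105, 132, 25.4 and 107 in postnatal control, against 5302, 4212, 4943, 4848 and 4924 in embryonic control. Hoxb4, known for its action in blood stem cells, read 252, 68.4, 12.3, 16.4 and 63.4 in postnatal control, against 1162, 1004, 1093, 961 and 1314 in embryonic control. None of these 3 genes had overlapping groups (adjusted p = 1.28e-09, 1.62e-11 and 1.28e-06), and each lay above background on 1 or 2 postnatal control arrays. Hoxb5, which acts in neural crest of the gut, read 20.03, 17.1, 12.5, 38.2 and 23.03 in postnatal control, against 763, 658, 841, 1010.4 and 884 in embryonic control, at least 5.55-fold lower. Hoxb6 read 65.3, 107, 43.9, 23.04 and 47.2 in postnatal control, against 4836, 5799, 5902, 4295 and 4372 in embryonic control, at least 33.7-fold lower. Hoxb9, a gene of the rib-bearing trunk, read 17.1, 46.4, 26.6, 108 and 68.7 in postnatal control, against 2137, 1807, 2116, 1711 and 1944 in embryonic control, at least 13.05-fold lower. The 3 genes were below background on all postnatal control arrays (adjusted p = 1.24e-08, 1.61e-11 and 1.11e-09). Hoxb1, Hoxb7 and Hoxb13 were not called, and Hoxb7 read 37.3 to 251 in postnatal control and 44.1 to 249 in embryonic control.

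Hoxc genes act in the spinal cord, where they sort motor neurons into pools and columns. Hoxc4 read 20.9, 56.5, 15.4, 13.1 and 25.1 in postnatal control, against 544, 591, 550.5, 784 and 636 in embryonic control, at least 4.15-fold lower. Hoxc5 read 94.6, 14.3, 7.21, 148 and 7.46 in postnatal control, against 271, 299, 309, 265 and 152 in embryonic control, at least 1.70-fold lower. Hoxc6, of the forelimb level, read 36.1, 74.6, 146, 401 and 246 in postnatal control, against 1558, 2163, 1751, 1697 and 1522 in embryonic control. Postnatal control arrays lay below every embryonic control array for the 3 genes (adjusted p = 2.74e-08, 0.000869 and 4.56e-07), though Hoxc6 was above background on 3 of them. Hoxc8, of the lower neck and upper trunk, read 15.7, 61.00, 12.4, 62.9 and 17.5 in postnatal control, against 5416, 5747, 4965, 5192 and 5236 in embryonic control, at least 35.8-fold lower. Hoxc9, of the thoracic cord, read 139.8, 175, 61.1, 52.5 and 92.2 in postnatal control, against 2289, 2085, 1945, 1486 and 1808 in embryonic control. Hoxc10, of the lumbar cord, read 7.46, 50.6, 7.23, 40.2 and 117 in postnatal control, against 947, 827, 906, 1022 and 1132 in embryonic control, at least 6.48-fold lower. These 3 genes also had no overlap between the groups (adjusted p = 1.99e-13, 7.3e-08 and 7.52e-08).

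In Hoxd the lower genes were Hoxd3, Hoxd8, Hoxd9 and Hoxd10. Hoxd3, which shapes the first neck vertebra, read 73.3, 15.5, 7.79, 79.7 and 154 in postnatal control, against 547, 499.8, 372, 325 and 376 in embryonic control, at least 2.80-fold lower (adjusted p = 4.06e-05). Hoxd8 read 34.3, 117, 263, 106 and 461 in postnatal control, against 4245, 4285, 4481, 4611 and 4561 in embryonic control (adjusted p = 2.3e-09). Hoxd9, of the lumbar level, read 25.6, 70.9, 37.3, 118 and 176 in postnatal control, against 575, 803, 732, 604 and 627 in embryonic control (adjusted p = 4.19e-05). The groups did not overlap in these 3 genes. Hoxd10, of the hindlimb level, read 20.7, 18.9, 18.3, 125 and 51.3 in postnatal control, against 133, 219, 255, 205 and 62.3 in embryonic control, at least 1.06-fold lower (adjusted p = 0.00727), with overlapping groups and 3 embryonic control arrays above background. Hoxd1, Hoxd11, Hoxd12 and Hoxd13 were not called.

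Transduced embryonic cells had both higher and lower Hox genes than their control. In transduced embryonic cells 8 of 33 Hox genes were called higher, or 24.2%, and 5 lower, or 15.2%, while 8.61% of all genes were called higher and 5.74% lower. Hoxa rose in 5 of 9 genes and fell in 1, Hoxb rose in none of 9 and fell in 3, Hoxc rose in 2 of 7 and fell in 1, and Hoxd rose in 1 of 8. At an unadjusted p under 0.05, 0 of 9 Hoxb genes were higher and 3 lower. Over all genes, 3884 of 18193 were higher and 3278 lower at an adjusted p under 0.05 without the fold threshold. By paralogue number, 3 of 13 genes numbered 1 to 5 were higher and 1 lower, 3 of 6 numbered 6 to 8 were lower and none higher, and 4 of 7 numbered 9 or 10 were higher and 1 lower. The median log2 change was 0.45 (0.02 once bounds replaced fitted values of genes at background), against 0.08 over all genes.

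**Figure D2:**
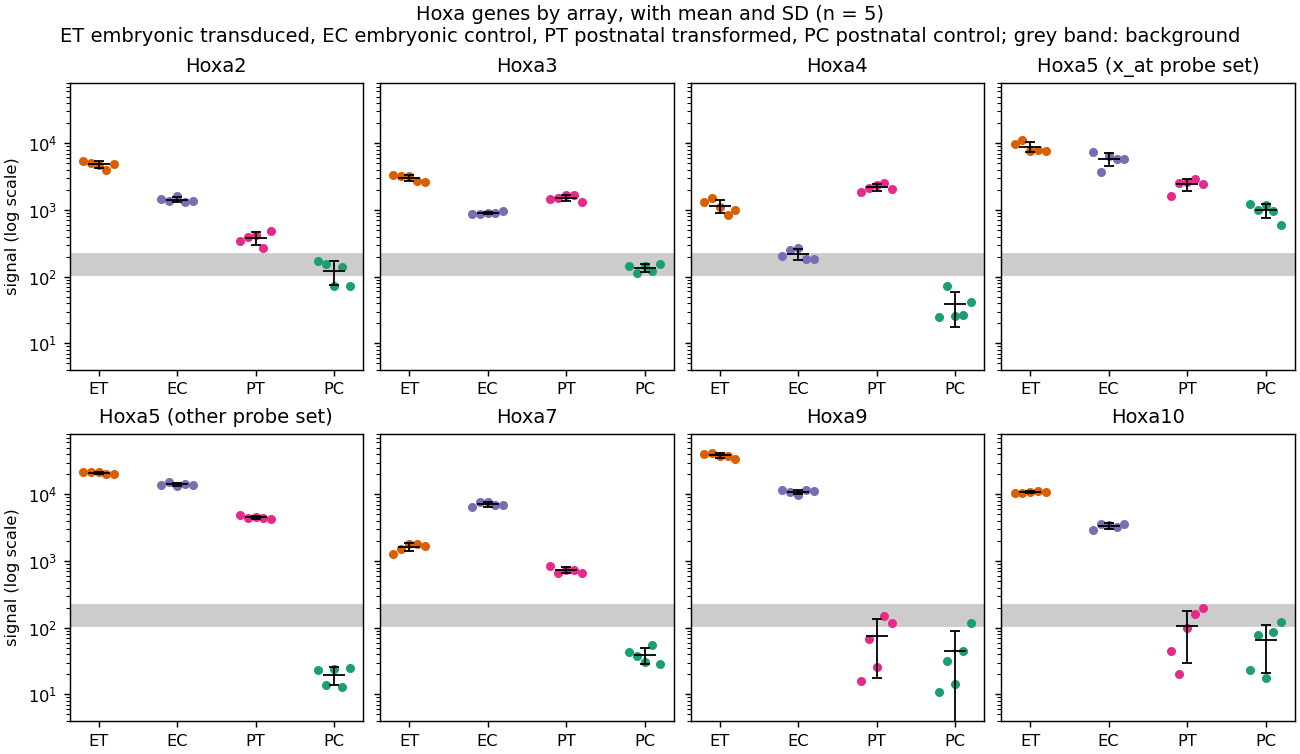
Signals (log scale) of Hoxa probe sets on each array, with the mean and SD of 5 arrays in black and the range of background levels in grey, where a lower whisker that would pass 0 runs off the axis. Hoxa2, Hoxa3, Hoxa4, Hoxa9 and Hoxa10 were higher in transduced than in embryonic control cells and Hoxa7 lower, while in postnatal cells Hoxa4 and Hoxa7 lay at 1861 to 2526 and 661 to 853 in transformed arrays, with all control arrays under background.

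The anterior Hoxa genes rose in transduced embryonic cells. Hoxa2 read 5508, 4999, 4748, 3990.3 and 4820.4 in transduced cells, a mean of 4813 ± 547 against 1427 ± 116 in embryonic control (SD, n = 5 each), a log2 change of 1.74 ± 0.21 (SE, adjusted p = 6.79e-07). Hoxa3 read 3364, 3288, 3211, 2741 and 2583 in transduced cells, a mean of 3038 ± 351 against 907 ± 34.8 in embryonic control, a change of 1.72 ± 0.13 (adjusted p = 5.21e-10). Hoxa4 read 1297, 1508, 1118, 846 and 1016 in transduced cells, a mean of 1157 ± 255 against 219 ± 38.6 in embryonic control, a change of 2.31 ± 0.24 (adjusted p = 5.71e-08). By their brightest probe sets, every transduced array was above every embryonic control array in the 3 genes. The further Hoxa3 probe set was not called here either (0.03 ± 0.25), while the other Hoxa3 probe sets and the second Hoxa4 probe set were called higher. Hoxa5 read 9643, 11037, 7637, 8000.0 and 7752 in transduced cells, 0.61 ± 0.20 above embryonic control, under 2-fold and so not called (adjusted p = 0.016). Its other probe set gave 0.57 ± 0.10, with 21766, 21460.4, 21526, 20023 and 19877 in transduced cells, also without overlap and not called.

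Farther along the cluster the direction changed from gene to gene. Hoxa7 read 1291, 1539.9, 1817, 1829 and 1681 in transduced cells, a mean of 1632 ± 224 against 7073 ± 509.5 in embryonic control, a change of -2.11 ± 0.15 (adjusted p = 1.91e-10). Hoxa9 read 40327, 42203, 38159.5, 38111 and 33675 in transduced cells, a mean of 38495 ± 3186 against 10999 ± 761 in embryonic control, a change of 1.80 ± 0.40 (adjusted p = 0.000786). Hoxa10 read 10337, 10655, 10692, 11128 and 10947 in transduced cells, a mean of 10752 ± 302 against 3351 ± 308 in embryonic control, a change of 1.68 ± 0.41 (adjusted p = 0.00197). Hoxa7 was thus lower between neighbours that were higher or not called. The second Hoxa9 probe set rose too, by 2.08 ± 0.43, while the second Hoxa10 probe set lay above background on 1 embryonic control array and no transduced array, and with the mean of all probe sets Hoxa10 lost its call. Hoxa11 read 380.3, 405, 297, 405 and 517 in transduced cells, a change of 0.02 ± 0.35, and the groups overlapped.

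Hoxb genes of the middle and upper range fell in transduced cells. Hoxb6 read 758, 915, 463, 948 and 912 in transduced cells, a mean of 799 ± 202 against 5041 ± 768 in embryonic control, a change of -2.66 ± 0.35 (adjusted p = 1.95e-06). Hoxb9 read 618, 318, 550.2, 449.7 and 392 in transduced cells, a mean of 465 ± 120.2 against 1943 ± 187 in embryonic control, a change of -2.06 ± 0.37 (adjusted p = 9.08e-05). Hoxb5 read 139, 290.0, 275, 49.8 and 388 in transduced cells, above background on 3 arrays, a mean of 228 ± 134 against 831 ± 132 in embryonic control (adjusted p = 0.000204). No transduced array reached an embryonic control array in these 3 genes. The hindbrain genes at the low end of Hoxb were not called. Hoxb2 read 4333, 4244, 4727, 4121 and 3669 in transduced cells, a change of 0.62 ± 0.37, with every transduced array above every control array. Hoxb3 read 4983, 4045, 3569.8, 3724 and 3874 in transduced cells, a change of -0.27 ± 0.31, and Hoxb4 read 1629, 1810.4, 1578, 1452 and 1177, a change of 0.46 ± 0.48. Groups overlapped for Hoxb3 and Hoxb4 (adjusted p = 0.208, 0.563 and 0.521 for Hoxb2, Hoxb3 and Hoxb4).

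**Figure D3:**
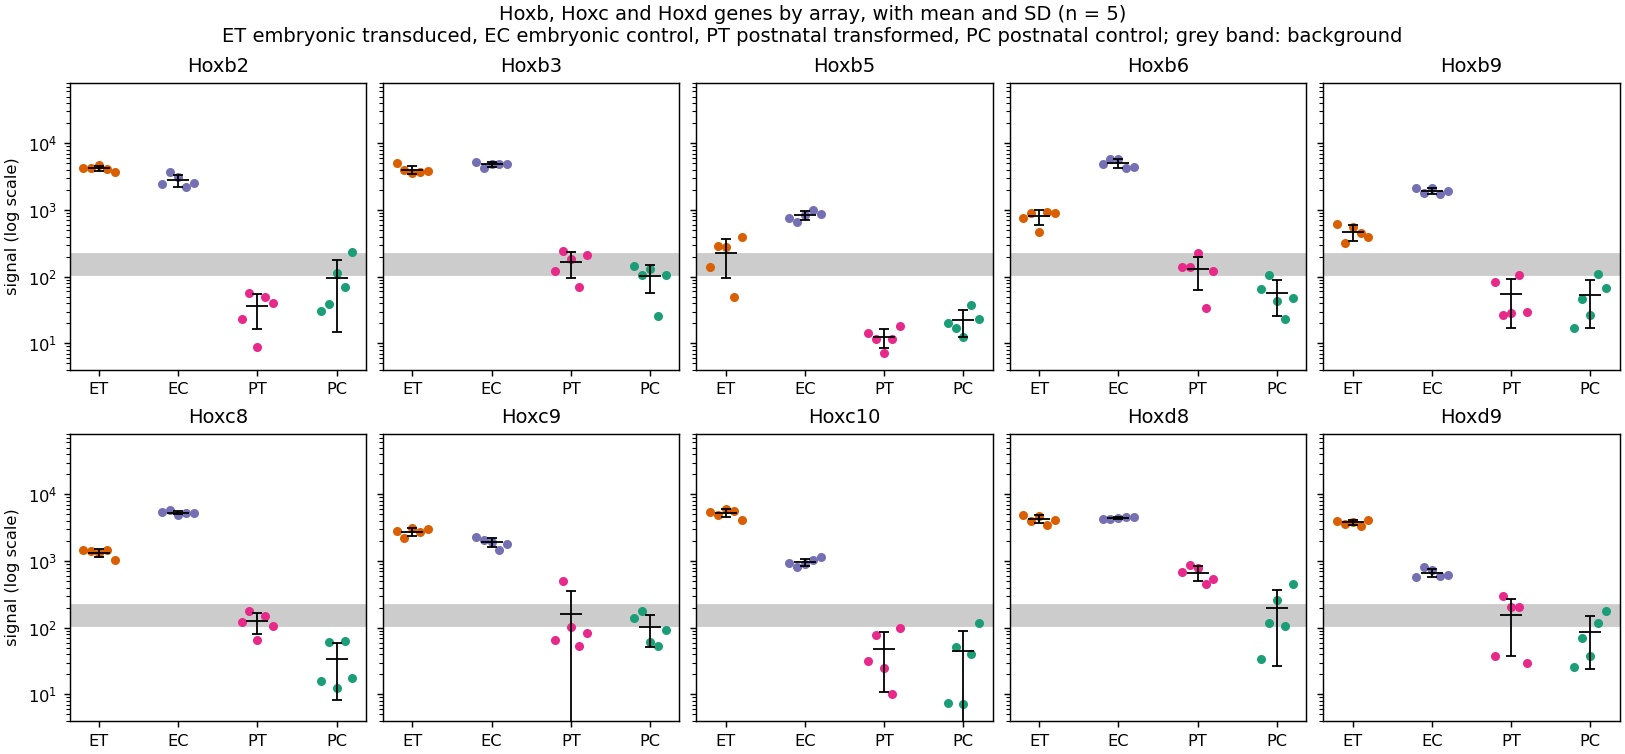
Signals (log scale) of 10 Hoxb, Hoxc and Hoxd genes on each array, with the mean and SD of 5 arrays in black and background levels in grey, where a lower whisker that would pass 0 runs off the axis. In embryonic cells Hoxb5, Hoxb6, Hoxb9 and Hoxc8 were lower and Hoxc10 and Hoxd9 higher in transduced arrays, and the postnatal signals lay mostly at background, apart from Hoxd8 in transformed arrays at 449 to 874.

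In Hoxc the fall of Hoxc8 stood beside the rise of Hoxc10. Hoxc8 read 1442, 1398, 1323, 1457 and 1033 in transduced cells, a mean of 1331 ± 174 against 5311 ± 292 in embryonic control, a change of -1.99 ± 0.29 (adjusted p = 7.99e-06). Hoxc10 read 5360.4, 4989, 6127, 5579 and 4183 in transduced cells, a mean of 5248 ± 724 against 967 ± 116 in embryonic control, a change of 2.42 ± 0.43 (adjusted p = 7.83e-05). Hoxd9, a paralogue of Hoxa9, read 3998, 3634, 3856, 3330.1 and 4139 in transduced cells, a mean of 3791 ± 318 against 668 ± 95.7 in embryonic control, a change of 2.48 ± 0.47 (adjusted p = 0.000171). Each of the 3 genes had no overlap between the groups. Hoxc9, between Hoxc8 and Hoxc10, read 2856, 2180.2, 3093, 2689 and 3037 in transduced cells, a change of 0.53 ± 0.40 with overlap and no call (adjusted p = 0.347). Hoxc13, a gene of hair and nails, passed the test (adjusted p = 0.0275), yet it read 141, 177, 23.5, 165 and 24.98 in transduced cells, above background on 1 array, and 12.9, 33.02, 17.3, 33.4 and 38.6 in embryonic control, above it on none. Its call was lost under 7 of the alternative settings, so a level above background was not shown.

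The remaining members above background in embryonic cells were not called. Hoxc4 read 760.0, 804, 669, 657 and 709 in transduced cells (0.22 ± 0.37), and Hoxc5 read 220.1, 403, 433, 368 and 368 (0.45 ± 0.52). Hoxc6 read 958, 1032, 1136, 1577 and 1336 in transduced cells (-0.53 ± 0.39). Hoxd3 read 196, 337, 361, 529 and 323 in transduced cells (-0.31 ± 0.44), and Hoxd8 read 4874, 4025, 4816, 3499 and 4173 (-0.06 ± 0.37). Transduced and embryonic control arrays overlapped in all 5 genes. Hoxa13, Hoxb1, Hoxb7, Hoxb13, Hoxd1, Hoxd10, Hoxd11, Hoxd12 and Hoxd13 were above background on at most 3 arrays of either embryonic group and were not called. Without postnatal control arrays 4 and 5, which enter the shared estimate of the spread, Hoxd1 was called higher too (adjusted p = 0.0479). A second probe set of Hoxd13 was above background on 4 transduced arrays and on no embryonic control array, at least 1.61-fold higher (adjusted p over probe sets = 0.0161).

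Transformed postnatal cells had higher Hox genes than their control at the low and middle paralogue numbers. In transformed cells 9 of 33 Hox genes were called higher, or 27.3%, and none lower, while 9.56% of all genes were called higher and 6.40% lower. At an unadjusted p under 0.05, limma gave 12 higher and 1 lower, Hoxb2. Over all genes, 3694 of 18193 were higher and 3998 lower at an adjusted p under 0.05 without the fold threshold. The Hox genes called higher were 5 of 9 in Hoxa, 1 of 9 in Hoxb, 1 of 7 in Hoxc and 2 of 8 in Hoxd. By paralogue number they were 6 of 13 numbered 1 to 5 and 3 of 6 numbered 6 to 8. None of 14 numbered 9 to 13 was called, and none had an unadjusted p under 0.05. The median log2 change over the 33 genes was 0.59 (0 once bounds replaced fitted values), against -0.0024 over all genes. Without postnatal control arrays 4 and 5, 10 genes were higher, Hoxb4 being lost (adjusted p = 0.149) and Hoxa9 (adjusted p = 0.0114) and Hoxc6 (adjusted p = 0.000194) added, with Hoxa9 above background on 1 transformed array.

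**Figure D4:**
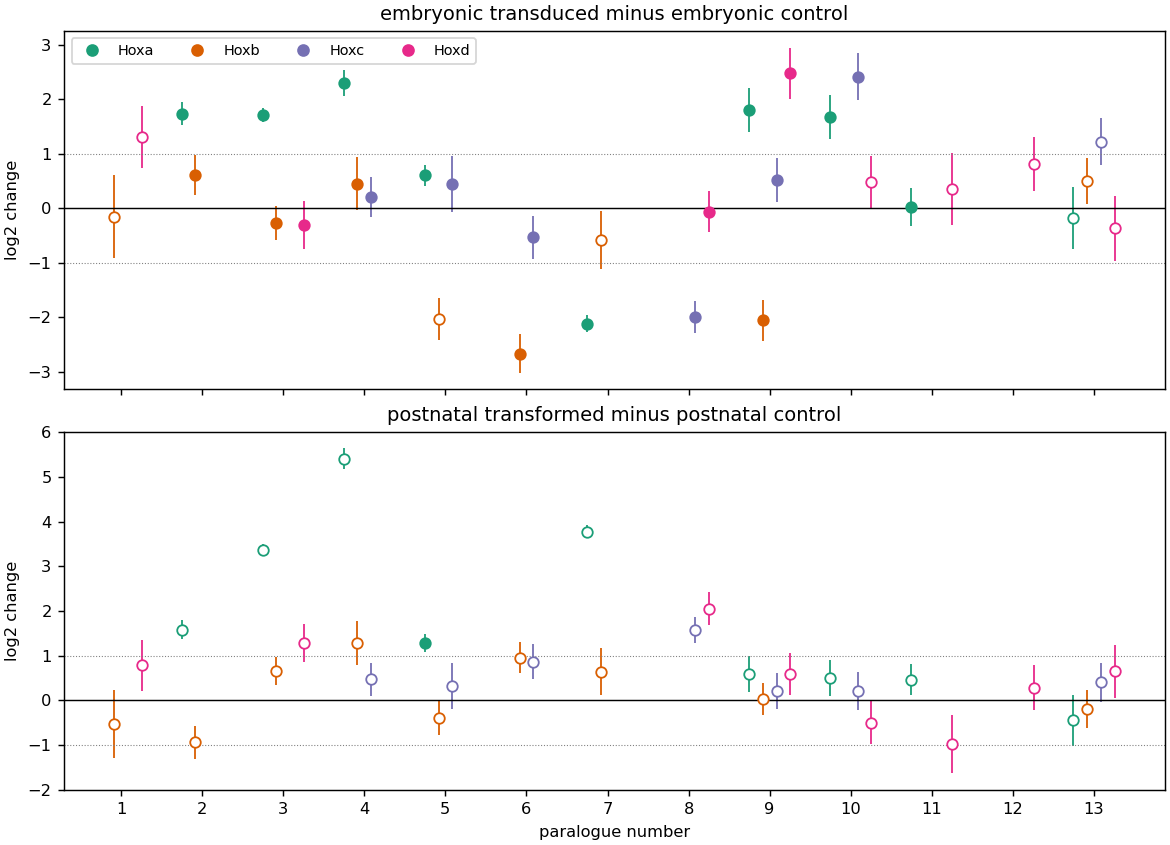
Log2 change with its SE for each Hox gene, by paralogue number and cluster (colour), for transduced minus control embryonic cells (top) and transformed minus control postnatal cells (bottom), where open points are fitted values of genes with too few arrays above background for a measured fold and dotted lines mark 2-fold. The embryonic changes run both ways, from -2.66 for Hoxb6 to 2.48 for Hoxd9, and no gene numbered 9 or above passed the test in postnatal cells.

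The 5 rising Hoxa genes are neighbours, with Hoxa6, which lies among them, not analysed. Hoxa2 read 342, 393, 428, 267 and 488 in transformed cells, a mean of 384 ± 84.02 against 123 ± 47.1 in postnatal control (SD, n = 5 each), above background there on 1 array (adjusted p = 2.16e-06). Hoxa3 read 1449, 1507, 1677, 1695 and 1330.5 in transformed cells, a mean of 1532 ± 155 against 136 ± 18.99 in postnatal control, above background there on 2 arrays (adjusted p = 1.07e-14). Hoxa4 read 1861, 2132, 2338, 2526 and 2052 in transformed cells, a mean of 2182 ± 257 against 38.3 ± 20.5 in postnatal control, at least 14.6-fold higher (adjusted p = 7.46e-14). No array of one group reached the range of the other in these genes. A second Hoxa4 probe set, also above background on every transformed array, gave at least 2.59-fold. Another Hoxa3 probe set read 618 to 1131 in transformed cells against 38.7 to 267 in postnatal control, while a further one was flat, at 180.3 to 320.1 in transformed cells and 186 to 297 in postnatal control.

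Hoxa5 and Hoxa7 closed the run. Hoxa5 read 1600.1, 2510.4, 2652, 2881 and 2482 in transformed cells, a mean of 2425 ± 487 against 998 ± 250.3 in postnatal control, a change of 1.28 ± 0.20 (adjusted p = 1.16e-05). By the other Hoxa5 probe set transformed cells read 4886, 4442, 4543, 4352 and 4282, a mean of 4501 ± 236 against 19.7 ± 5.93 in postnatal control, at least 30.3-fold higher. Hoxa7 read 853, 671, 722, 742 and 661 in transformed cells, a mean of 729.9 ± 77.05 against 39.2 ± 10.9 in postnatal control, at least 4.90-fold higher (adjusted p = 1.65e-14). The 2 Hoxa5 probe sets moved in the same direction and differed in the level of postnatal control. The next genes along the cluster did not pass the test. Hoxa9 read 15.8, 67.4, 25.8, 149 and 119 in transformed cells, above background on 1 array, and a mean of 75.4 ± 57.8 against 44.1 ± 43.8 in postnatal control (adjusted p = 0.267). Its second probe set was above background on 2 arrays of each postnatal group and averaged 205 ± 196 in transformed cells against 222 ± 209 in postnatal control, a change of -0.11 ± 0.43. Hoxa10 read 45.1, 20.05, 99.4, 160.3 and 201 in transformed cells, above background on 2 arrays (adjusted p = 0.378), and Hoxa11 read 323, 179, 175, 255 and 79.6, above it on 4 (adjusted p = 0.331). Groups overlapped for Hoxa9, Hoxa10 and Hoxa11, and these signals are too close to background to show that the genes were unchanged.

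In the other clusters the called genes were Hoxd8, Hoxc8, Hoxd3 and Hoxb4. Hoxd8 read 697, 874, 792, 449 and 539 in transformed cells, a mean of 670.0 ± 175 against 196 ± 169.6 in postnatal control, where 2 arrays were above background (adjusted p = 9.78e-05). The highest postnatal control array, at 460.5, overlapped the lowest transformed array, at 449, and the second Hoxd8 probe set was not called (0.84 ± 0.38). Hoxc8 read 122, 180.4, 64.6, 148 and 106 in transformed cells, above background on 2 arrays, and a mean of 124 ± 43.6 against 33.9 ± 25.7 in postnatal control (adjusted p = 0.000113). Hoxd3 read 97.8, 187, 199, 121 and 119.9 in transformed cells, above background on 3 arrays, and a mean of 145 ± 45.1 against 66.1 ± 59.04 in postnatal control (adjusted p = 0.0208). These signals straddled background and the calls of Hoxc8 and Hoxd3 were lost with a larger offset of 64. Hoxb4 read 149.7, 191, 291, 39.6 and 223 in transformed cells, above background on 3 arrays, and a mean of 179 ± 93.4 against 82.4 ± 98.02 in postnatal control (adjusted p = 0.037). Its second probe set went the other way, called lower with 6.20, 21.3, 28.9, 15.7 and 30.1 in transformed cells against 160.3, 41.2, 48.8, 56.3 and 42.2 in postnatal control, nearly all below background, so no direction is given for Hoxb4. Hoxb7 read 239, 164, 165, 256 and 325 in transformed cells, above background on all 5, and 216, 102, 37.3, 251 and 200.4 in postnatal control, above it on 3, and was not called (adjusted p = 0.38). Hoxc6 read 144 to 361 in transformed cells and 36.1 to 401 in postnatal control, not called (adjusted p = 0.0854), while its x_at probe set was higher, at least 1.42-fold.

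Set side by side, the responses of embryonic and postnatal cells shared Hoxa2, Hoxa3 and Hoxa4, which were higher in both. Hoxa7 and Hoxc8 were lower in transduced embryonic cells and higher in transformed postnatal cells. Another 8 genes were called in embryonic cells alone, among them Hoxa9, Hoxa10, Hoxb6, Hoxc10 and Hoxd9, 4 in postnatal cells alone (Hoxa5, Hoxb4, Hoxd3 and Hoxd8), and 16 in neither. Hoxa5 was higher in transduced cells too, by under 2-fold (0.61 ± 0.20, adjusted p = 0.016 in limma). An interaction term tested whether the 2 responses differed. It was called with a higher value in postnatal cells for 9 of 33 Hox genes and with a lower value for 3, against 9.36% and 9.75% of all genes. Of the genes called in 1 response alone, the term was not called for Hoxa5, Hoxa9, Hoxa10, Hoxb4 and Hoxc13. Their adjusted p for this term was 0.0609, 0.0962, 0.117, 0.389 and 0.324. For Hoxa5 this rests on the x_at probe set, and its other probe set had unlike responses. That probe set averaged 4501 in transformed cells against 19.7 in postnatal control, which lay below background. In embryonic cells it averaged 20931 in transduced cells against 14149 in control. For Hoxa7 the difference, postnatal minus embryonic, was 5.89 ± 0.22 on the log2 scale (adjusted p = 7.34e-15). For Hoxa4 it was 3.09 ± 0.34 (adjusted p = 1.48e-07) and for Hoxa3 1.64 ± 0.19 (adjusted p = 2.76e-07), while Hoxa2 at -0.16 ± 0.30 was not called (adjusted p = 0.73). These are fitted values, since the postnatal control lay at background for these genes. How the cells were modified also differs between the responses and cannot be told apart from age here.

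Transformed postnatal cells had lower Hox signals than transduced embryonic cells in most genes. Here 22 of 33 Hox genes were called lower, or 66.7%, and 1 higher, while 13.7% of all genes were called lower and 11.7% higher. The 22 included all 7 genes numbered 9 or 10. Hoxa9 averaged 75.4 ± 57.8 in transformed cells against 38495 ± 3186 in transduced cells. Hoxc10 was at least 35.3-fold lower and Hoxb2 at least 28.5-fold lower. Hoxa3 and Hoxa4 were not called. Hoxa3 averaged 1532 ± 155 in transformed cells against 3038 ± 351 in transduced cells, a difference of -0.98 ± 0.13, and Hoxa4 averaged 2182 ± 257 in transformed cells against 1157 ± 255 in transduced cells, a difference of 0.93 ± 0.24. Neither passed 2-fold, though their groups did not overlap (adjusted p = 1.25e-06 and 0.00215). The log2 difference was -1.14 ± 0.15 for Hoxa7 and -3.61 ± 0.21 for Hoxa2, both called lower. Hoxb7 was the 1 gene called higher, at 229.8 ± 67.8 in transformed cells against 95.6 ± 72.4 in transduced cells, where 1 array was above background, and that call was lost under 7 settings. Over all genes the median of this comparison was -0.14 as deposited and 0.0011 after quantile normalization, and with quantile normalization 20 Hox genes were lower and 2 higher, Hoxa4 and Hoxb7.

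Skap2, the measured gene that flanks the Hoxa cluster on the side of Hoxa2 and encodes an adaptor protein, was higher in transformed postnatal cells, as were the adjacent Hoxa genes. It averaged 37587 ± 1816 in transformed cells against 2942 ± 278 in postnatal control, a log2 change of 3.67 ± 0.07 (adjusted p = 2.89e-19). In embryonic cells it averaged 9544 ± 902 in transduced cells against 19798 ± 1016 in control, a change of -1.05 ± 0.07 (adjusted p = 6.28e-11), while Hoxa2, Hoxa3 and Hoxa4 were higher. On the Hoxa13 side, the homeobox gene Evx1 was below background on every postnatal control array and above it on 2 transformed arrays, and was not called in either response. Hibadh, an enzyme gene beyond it, averaged 10977 ± 493 in transformed cells against 16397 ± 1696 in postnatal control, -0.57 ± 0.07, under 2-fold. Beside the other clusters Cbx5, a heterochromatin protein gene past the Hoxc4 end, was lower in transformed cells by its brightest probe set (-1.02 ± 0.07). Its other probe sets above background on all arrays differed in this. They averaged 4085, 7560 and 915 in transformed cells, against 3903, 8107 and 1799 in postnatal control. In transduced cells the same probe sets averaged 3117, 4534 and 1226, against 5979, 11221 and 2781.5 in embryonic control. Calcoco1, Smug1, Mtx2, Lnpk, Evx2, Ttll6 and Skap1 were not called in either response.

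**Figure D5:**
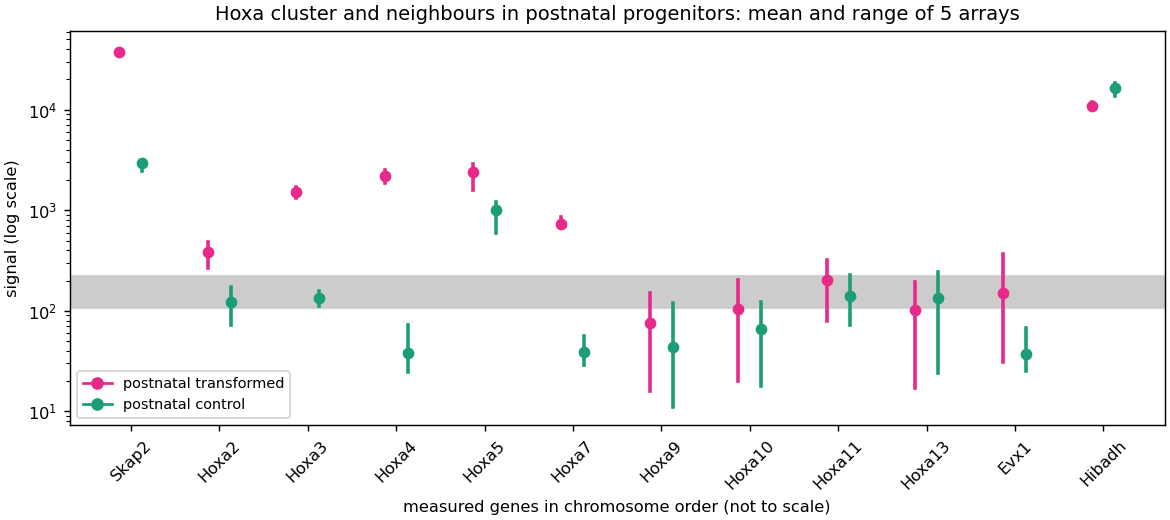
Signal (log scale) of the measured genes of the Hoxa cluster and its neighbours in chromosome order, as the mean (point) and range (line) of 5 arrays in transformed and control postnatal cells, with background levels in grey. Skap2 and the run from Hoxa2 to Hoxa7 were higher in transformed cells, and the ranges overlapped from Hoxa9 to Hoxa13.

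Genes for proteins that work with Hox factors were lower where they were called. Called lower over all genes were 5.74% in transduced and 6.40% in transformed cells. Of 8 measured TALE homeodomain genes, whose products bind DNA together with Hox proteins, 2 were lower and none higher in transduced cells, and 3 were lower and none higher in transformed cells. In transduced cells Meis1 changed by -1.21 ± 0.12 and Pknox2 by -1.36 ± 0.12. In transformed cells Pbx3 changed by -2.16 ± 0.10, Meis2 by -1.97 ± 0.15 and Pknox2 by -1.19 ± 0.12. At an unadjusted p under 0.05, 2 of the 8 were higher and 6 lower in transduced cells, and 2 were higher and 5 lower in transformed cells. Over all genes, 3884 of 18193 were higher and 3278 lower in transduced cells at an adjusted p under 0.05 without the fold threshold. In transformed cells 3694 were higher and 3998 lower. All 8 genes were above background on all arrays of every group. The list medians were -0.47 in the embryonic and -0.63 in the postnatal response, against 0.08 and -0.0024 over all genes.

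Genes upstream of the clusters changed in differing directions. Of 16 retinoic acid pathway genes, 2 were higher and 2 lower in transduced cells, and 3 were higher and none lower in transformed cells. Over all genes 8.61% were higher and 5.74% lower in transduced cells, and 9.56% higher and 6.40% lower in transformed cells. With so few genes the counts are a description of the members named here. The 3 were the receptor Rarg (1.47 ± 0.14), Cyp26b1, which degrades retinoic acid (1474 ± 232 in transformed cells against 191 ± 183 in postnatal control), and Aldh1a3, which makes it (640.5 ± 132 in transformed cells against 127 ± 110.1 in postnatal control). In transduced cells Cyp26b1 was at least 2.82-fold lower and the receptor Rara was higher (1.26 ± 0.38). Egr2, which drives Hoxa2 and Hoxb2 in the hindbrain, averaged 16889 ± 971 in transduced cells against 1743 ± 504 in embryonic control (3.30 ± 0.20). In postnatal cells it went the other way, at 751 ± 185 in transformed cells against 5793 ± 1768 in control (-2.90 ± 0.20). The part of Egr2 in the Hox results was not tested. Cdx1 and Cdx4 were below background on every array of every group. By its brightest probe set Cdx2 was above it on 5 transformed, 4 embryonic control, 2 transduced and 2 postnatal control arrays. Its other probe set was above background on no array. Of 7 measured Cdx genes and hindbrain activators of Hox genes, 1 was higher and none lower in transduced cells. In transformed cells 1 was higher and 1 lower.

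Of 26 Polycomb genes, 3 were higher and none lower in transduced cells, and 2 were higher and 3 lower in transformed cells. These counts stand beside 8.61% higher and 5.74% lower over all genes in transduced cells, and 9.56% and 6.40% in transformed cells, so the higher counts at 2-fold are near the share of all genes. At an unadjusted p under 0.05, 14 of the 26 were higher and 4 lower in transduced cells. In transformed cells 7 were higher and 10 lower. The list medians were 0.36 in the embryonic and -0.11 in the postnatal response, against 0.08 and -0.0024 over all genes. The methyltransferase Ezh2, which sets the silencing mark on Hox clusters, averaged 4765 ± 385 in transformed cells against 19052 ± 6164 in postnatal control, a change of -1.93 ± 0.16 (adjusted p = 1.24e-09). Its paralogue Ezh1 was higher in transduced cells (1.23 ± 0.22). By its brightest probe set Pcgf5, of a variant Polycomb complex, was higher in both responses (1.36 ± 0.18 embryonic and 1.28 ± 0.18 postnatal). Another Pcgf5 probe set above background on all arrays moved less in postnatal cells. It averaged 2581 in transformed cells against 2200 in postnatal control, and 5000 in transduced cells against 2677 in embryonic control. Pcgf6 (-1.18 ± 0.06) and Phc1 (-1.05 ± 0.08) were lower in transformed cells. Of 13 Trithorax and H3K27 demethylase genes, 1 was higher in transduced cells, the demethylase Kdm6b (1.38 ± 0.14), and none was called in transformed cells by limma, where 1 was higher and 10 lower by under 2-fold at an unadjusted p under 0.05. Of 7 genes of chromosome looping, among them Ctcf, none was called in either response. At an unadjusted p under 0.05, 1 of them was higher and 3 lower in transduced cells, and none was higher and 6 lower in transformed cells. All genes were not counted at an unadjusted p. Without the fold threshold, 3884 of 18193 genes were higher and 3278 lower in transduced cells at an adjusted p under 0.05. In transformed cells 3694 were higher and 3998 lower, and counts at an unadjusted p would be at least as large. Of 8 mitosis genes, 7 were also lower in transformed cells, and postnatal control arrays 4 and 5 read near the transformed arrays for them. The part of proliferation in the Polycomb values was not tested.

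Other genes of regional identity were called in both directions, where 8.61% of all genes were higher and 5.74% lower in transduced cells, and 9.56% higher and 6.40% lower in transformed cells. Of 11 forebrain and midbrain patterning genes, 2 were higher in transduced cells, Otx1, at least 2.22-fold, and Emx2 (751 ± 172 in transduced cells against 163 ± 45.3 in embryonic control), and 3 were lower in transformed cells, among them Otx1 and Pax6. Otx2 and Nkx2-1 did not lie above background on any array. Of 13 hindbrain and spinal patterning genes, 5 were higher and 2 lower in transduced cells, and 3 were higher and 2 lower in transformed cells. Irx2 (1.75 ± 0.17 embryonic and 2.39 ± 0.17 postnatal) and Irx3 rose in both responses, and Irx3 averaged 4757 ± 431 in transformed cells against 157 ± 111 in postnatal control. Zic1 was lower in both, with a log2 change of -3.94 ± 0.20 in transduced cells and at least 9.37-fold lower in transformed cells. Of 11 genes of other homeobox families, 2 were higher in transduced cells, and 3 were higher and 4 lower in transformed cells, En2 being higher in both.

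Markers of other cell types also differed between the groups. Over all genes 8.61% were called higher and 5.74% lower in transduced cells. In transformed cells 9.56% were called higher and 6.40% lower. Of 5 neural crest and Schwann cell markers, whose summed signal was 35457 to 38128 in transformed arrays against 11730 to 40911 in postnatal control arrays, 3 rose, Erbb3 (4.45 ± 0.32), Tfap2a (1.83 ± 0.22) and Foxd3 (at least 2.03-fold). Most of that sum was Sox10, which averaged 25251 in transformed cells and 25363 in postnatal control. Of 7 fibroblast and mesenchyme markers, with a summed signal of 24428 to 25509 in transformed against 1431 to 4002 in postnatal control arrays, 1 rose, Prrx1 (3.77 ± 0.23), and Col1a1 was below background on all transformed arrays. Prrx1 alone averaged 24169 in transformed cells against 1945 in postnatal control, so the summed signal is mostly this gene. Neuron markers fell in 6 of 6 cases in transduced cells, with a summed signal of 2449 to 2933 against 9142 to 9921 in embryonic control. In transformed cells 2 neuron markers were called higher and 3 lower, with a summed signal of 11841 to 12817 against 8347 to 12731 in postnatal control. Of 6 microglia markers, Aif1, Itgam and C1qa were below background on every array, as was the endothelial Pecam1. By its brightest probe set the microglial Csf1r was above background on all arrays of every group, at means of 569 to 862. The endothelial Kdr was above it on all transduced (mean 504) and all transformed arrays (mean 347). In transduced cells 1 microglia marker was called higher and none lower, and in transformed cells none was called. Of 5 endothelial markers, 1 was called higher and none lower in each response. Of 7 neural and glial progenitor markers, 6 were above background on all transduced arrays and 7 on all arrays of each other group. In transduced cells 3 of them fell and none rose, Pdgfra (-3.70 ± 0.19), Cspg4 (-1.77 ± 0.17) and Sox10, which was above background on 2 transduced arrays, with a summed signal of 175550.0 to 186600.0 against 251340.0 to 279540.0 in embryonic control. In transformed cells Nes rose (1.42 ± 0.36), with a summed signal of 261090.0 to 278740.0 against 243950.0 to 340150.0 in postnatal control. Of 6 astrocyte markers, 3 fell in transduced cells, with a summed signal of 7785 to 8737 against 20590.0 to 25138 in embryonic control, and 3 fell in transformed cells, with 13979 to 16807 against 13191 to 55846 in postnatal control. They were Slc1a3 (-1.56 ± 0.17), Slc1a2 (-1.49 ± 0.17) and Aldh1l1 in transduced cells, and Aldh1l1 (-3.38 ± 0.31), Aqp4 and Gfap in transformed cells. Of 4 oligodendrocyte markers none was called in transduced cells by limma or passed an unadjusted p under 0.05, and 2 fell in transformed cells, Mbp (-1.45 ± 0.36) and Mag (at least 2.92-fold), with a summed signal of 1040 to 1638 against 1785 to 8518 in postnatal control. These values use 1 probe set for Mbp, and the means of its other probe sets were lower in both responses. One of them averaged 44.8 in transduced cells, below background on all arrays, against 281 in embryonic control, above it on all. It averaged 390 in transformed cells against 22035 in postnatal control. The part of these cell type markers in the Hox results was not tested.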

How the data were processed

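Total RNA, per the labels, of 4 groups of 5 samples was measured on single-colour arrays with Affymetrix probe set names. The authors deposited linear intensities for 45101 probe sets. The sources used here do not give their software, background correction or normalization. With 2% of values trimmed at each end, array means were 2500.01 to 2500.02, and deposited intensities were used without rescaling. The platform annotation gave 34945 probe sets a single symbol, 932 several and 9160 none listed, and 64 control probe sets were left out. Each of 18193 genes was represented by the brightest of its single-symbol probe sets by mean log2, with no filter on dim genes. A group mean model of log2(intensity + 16), a scale that understates changes of dim genes, was fitted to the 20 arrays (limma 3.58.1 in R 4.3.3, lmFit and eBayes with trend, data.table at version 1.17.8). Tests were two-sided and p-values were adjusted by Benjamini-Hochberg across all genes. Summaries and plots used Python 3.11.15, numpy 2.4.6, pandas 2.3.3 and matplotlib 3.10.9. The precision is limited by 5 arrays a group. Arrays of a group correlated with r of 0.947 to 0.970, and no 2 arrays held identical values.

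Genes below background on all arrays of 1 group are given as "at least N-fold", the mean log2 of the brighter group against the higher of signal and background in the dimmer one. Genes above it on 1 to 3 arrays of a group are given as signals with that number. Replicate numbers did not pair arrays (correlations of same-numbered deviations from -0.053 to 0.032). The model was tested on simulated data. Alternatives were the offset, normalization, centring, probe set choice, dim gene filter, fold threshold, eBayes trend, background level, replicate block, each array left out, and, chosen after seeing the data, postnatal control arrays 4 and 5 left out. The members and lists were chosen with earlier results of these data known. Every member is accounted for, members called in a response or between the controls or above background on all arrays of a group by array, and other named genes are at most 4 called members of a list with the smallest adjusted p, plus genes flanking a cluster. Further list genes are named for where they lay against background.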

Additional observations from a re-analysis of the deposited data

Results flagged for a closer look

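The response to modification differed between postnatal and embryonic cells in 12 of 33 Hox genes by the interaction test in limma, given here as postnatal minus embryonic log2 changes. Over all genes 19.1% were called in this test. Values for the Hox genes follow, each by its brightest probe set. Hoxa5 was not called by its x_at probe set, while its other probe set had unlike responses, as given above. The difference was positive for Hoxa7 (5.89, adjusted p = 7.34e-15), Hoxb6 (3.62, 3.69e-06), Hoxc8 (3.57, 3.6e-07), Hoxa4 (3.09, 1.48e-07), Hoxd8 (2.11, 0.0026), Hoxb9 (2.08, 0.00255), Hoxa3 (1.64, 2.76e-07), Hoxb5 (1.63, 0.022) and Hoxd3 (1.59, 0.0458). It was negative for Hoxc10 (-2.21, 0.00524), Hoxd9 (-1.89, 0.0274) and Hoxb2 (-1.56, 0.0195). For Hoxb5, Hoxb9 and Hoxc10 both postnatal groups lay below background, so the difference rests on the embryonic response. Hoxb2, Hoxb6 and Hoxd9 were not called in the postnatal response and lay near background there. Hoxb6 was above it on 2 transformed and no control arrays, Hoxb2 on no transformed and 1 control array, and Hoxd9 on 3 and 1.

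Of 52 sets of 5 arrays, 1 for each gene above background on all arrays of a group, 4 had a single array far from the others, where chance marks about 1 in 20. The array was the lowest in each case. Hoxa5 read 1600.1 on 1 transformed postnatal array and Hoxc8 read 1033 on 1 transduced embryonic array. Hoxc5 read 220.1 on 1 transduced embryonic array and 152 on 1 embryonic control array.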

How the results depend on the processing

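Hoxb4, higher in transformed postnatal cells by its brightest probe set, was lower by its other probe set (-1.13), which lay above background on 1 postnatal control and no transformed array. The second Hoxa10 probe set, above background on at most 1 array of any group, had the opposite sign in transduced cells without a call (-0.41). No other called Hox gene turned its direction in either response under the alternatives run. Of values for single genes, 790 kept their direction and side of the threshold and 17 lost a call, and 1575 and 45 did so with 1 array left out. The count of Hox genes lower in transformed postnatal cells, 0 as reported, was 1 with every probe set on its own (Hoxb4) and 1 without a fold threshold (Hoxb2), and leaving out 1 array at a time gave 0 to 1, with Hoxb2 called. In the difference of responses the lower count, 3, was 5 with an offset of 64 and 5 with every probe set. The count higher in transformed postnatal against transduced embryonic cells, 1, was 0 with an offset of 64, 2 after quantile normalization, 2 without a fold threshold and 0 to 1 leaving out 1 array. Postnatal control had 2 genes above background when any probe set counted and 3 when at least 3 arrays sufficed, and transformed cells then had 14. With the replicate block, counts were 9 higher and 5 lower in embryonic and 9 and 0 in postnatal cells, and 1 call was lost, the difference of responses of Hoxd3 (1.59). Single calls lost elsewhere were Hoxc13, Hoxb4, Hoxd3, Hoxc8, Hoxa10, Hoxa3, Hoxd9, Hoxa11 and Hoxb7. The cause was not tested. Signals near background limit what the postnatal groups can show.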

Other observations

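The annotation also names 3 transcripts on the strand opposite to Hox genes, Hoxa11os, Hoxb5os and Hoxd3os1, which were looked up after the Hox values had been seen and are given as values. Hoxb5os read 595, 671, 475, 385 and 1042 in transduced embryonic cells, against 1838, 1805, 1701, 1862 and 1874 in embryonic control, a log2 change of -1.58 ± 0.34 (adjusted p = 0.000747). In postnatal cells it read 424, 309, 464, 559 and 373 in transformed cells, against 119, 149.6, 219.6, 35.7 and 265 in control, above background there on 2 arrays (adjusted p = 0.000888). Hoxb5os thus was lower in transduced and higher in transformed cells, while Hoxb5 itself was lower in transduced cells and below background in both postnatal groups. Hoxd3os1 averaged 1982 ± 303 in transduced cells against 914 ± 149 in embryonic control (SD, n = 5 each), a change of 1.10 ± 0.38 (adjusted p = 0.0253), while Hoxd3 was not called. In postnatal cells Hoxd3os1 was above background on 1 transformed array and on no control array. Hoxa11os was near or below background in every group and was called in neither response.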
